A study of Schizosaccharomyces pombe with 80 samples.

Results

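The genes rpb1 and rpb2 encode the largest and second-largest subunits of RNA polymerase II (RNAPII) in the fission yeast Schizosaccharomyces pombe. Their members here were the deposited peaks of histone H3 lysine 9 dimethylation (H3K9me2) that overlapped either annotated gene. There were 31 such peaks among 7203 in 75 lists, 29 over rpb1 in 25 lists and 2 over rpb2 in 2 lists. The pair was chosen by these same values: rpb1 had been seen to carry a short peak in most vector and seb1-1 isolates, so the presence of peaks by group is given as a description, with no test.

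H3K9me2 was profiled by chromatin immunoprecipitation and sequencing in isolates derived from parent strains, with inputs as controls. The dominant-negative TFIIS gene tfs1DN was driven by the thiamine-repressible nmt1 promoter, and control isolates carried the empty vector. Transformants were selected on plates with thiamine, which represses nmt1. Of 80 samples, 75 had a peak list, and the 5 samples of RNAPII immunoprecipitation or its input were not analysed here. A list held only stretches whose coverage was at least about 3 times that of the chromosome, so a gene without a peak may hold signal under that level.

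The vector isolates (n = 15) lacked epe1. The epe1 tfs1DN isolates (n = 13) lacked epe1 and carried tfs1DN. The epe1 ago1 tfs1DN isolates (n = 12) also lacked ago1, which encodes the Argonaute of the RNA interference pathway. The seb1-1 isolates (n = 15) lacked epe1, carried tfs1DN and held the mutant allele seb1-1 of an RNA-binding factor of RNAPII. All isolates and their parents therefore lacked epe1, and the labelled strains of the parents held neither tfs1DN nor the vector. The parents were 3 epe1 strains, 1 seb1-1 epe1 strain and 3 epe1 ago1 strains. These strains were grown at 30 C. The other lists were 2 of pfs2-11, with a mutant cleavage and polyadenylation factor, and 2 of its wild type, both labelled 37 C and not as lacking epe1, and 9 inputs. Isolates of a group descend from 1 parent strain or a few, so p-values measure the spread between isolates and not between independently built strains. By the labels each group of isolates had its own input or inputs and its own parent or parents, and the labels name no sequencing batches. The group and the set in which samples were handled therefore cannot be told apart.

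RNAPII transcribes all protein-coding genes. The Rpb1 protein ends in a C-terminal domain, a long flexible tail of tandem heptad repeats that is phosphorylated during the transcription cycle and recruits factors for RNA processing, elongation and termination, Seb1 among them. Rpb2 forms the active centre together with Rpb1. TFIIS helps a backtracked polymerase to resume by stimulating cleavage of the nascent RNA. H3K9me2, laid down by the methyltransferase Clr4, marks heterochromatin at centromeres, telomeres and the mating-type region, and Epe1 opposes its spread. Essential genes such as rpb1 and rpb2 are normally euchromatic.

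The rpb1 gene (SPBC28F2.12) occupies 1591140 to 1596744 of chromosome II on the forward strand, 5605 bp, and has 7 coding exons. The last of them is 4902 bp long and holds the C-terminal domain. At its end, 24 heptads match the exact consensus. From the first to the last of them the span is 525 bp, 1596183 to 1596707, which is 3 bp short of the last coding base at 1596710. This span, the exact heptad stretch below, also holds some bases outside exact heptads. The neighbour upstream is hmo1, 232 bp away. On the other side no protein-coding gene is annotated for 51487 bp, a stretch that holds centromere 2 and ends at yox1. Within 8 kb of the end of rpb1 the annotation places 12 tRNA genes, the first of them 1251 bp away. The rpb2 gene (SPAC23G3.01) lies at 850636 to 854385 of chromosome I on the forward strand, 3750 bp with 2 coding exons, between rps802 (376 bp away) and sib1 (67 bp away).

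The sequences below show the part of rpb1 most often under a peak and the start of the heptads. The seb1-1 peaks lay around this junction, while the vector peaks were spread more widely. The first, chrII:1596073-1596134, was covered in all 12 seb1-1 isolates that had a peak over rpb1, and the capitals mark the 61 bases that were covered in 19 of the 23 vector and seb1-1 isolates with a peak. The lower-case base falls between the peaks of vector isolates 7 and 10 and was covered in 1 isolate fewer. The second, chrII:1596135-1596245, continues directly from it, with the first 3 exact heptads in capitals. The next 4 lines give single heptads of 21 bases (chrII:1596183-1596203, chrII:1596204-1596224, chrII:1596225-1596245 and chrII:1596246-1596266), with capitals where a base differs from heptad 1. All are forward strand, 5′ to 3′, from the RefSeq assembly ASM294v3.
rpb1 shared stretch: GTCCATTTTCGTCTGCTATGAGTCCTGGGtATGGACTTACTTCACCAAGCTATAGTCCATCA
rpb1 junction: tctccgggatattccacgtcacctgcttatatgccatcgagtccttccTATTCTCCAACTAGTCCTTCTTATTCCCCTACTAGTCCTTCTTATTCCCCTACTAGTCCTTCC
heptad 1: tattctccaactagtccttct
heptad 2: tattcCccTactagtccttct
heptad 3: tattcCccTactagtccttcC
heptad 4: tattctccaacAagtccttcA

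The repeats were not identical at the DNA level, although each encodes the same amino acids. Among the 24 exact heptads there were 21 distinct DNA sequences. A base in the heptad stretch equalled the base 21 positions further on in 80.4% of cases, against 28.4% in rpb1 before the stretch. Of all runs of 20 bases in the heptad stretch, 31.0% occurred more than once in the nuclear genome, and of runs of 50 bases 7.98%, against 0% of both in rpb1 before it and in rpb2. GC content was 46.3% in the heptad stretch, 40.8% in rpb1 before it, 40.9% in rpb2 and 35.9% over chromosome II. Repeats within the stretch itself and copies elsewhere were counted together. A short read inside the heptads can thus match more than 1 place, in the stretch or outside it, while the 62 bp shown above lie before the exact heptads.

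A peak lay over rpb1 in 11 of 15 vector isolates, or 73.3% (95% exact Clopper-Pearson interval 44.9 to 92.2%). A peak lay over it in 12 of 15 seb1-1 isolates, or 80% (51.9 to 95.7%). By comparison, 3.09% of 5113 protein-coding genes carried a peak in at least 1 vector isolate and 2.68% in at least 1 seb1-1 isolate. Shares of 1.92% and 1.94% carried one in most isolates of the group or in all of them. These shares are background to the counts, and nothing is read from them, since rpb1 was chosen for its presence. No peak lay over rpb1 in the epe1 tfs1DN isolates, 0 of 13 (0 to 24.7%), or in the epe1 ago1 tfs1DN isolates, 0 of 12 (0 to 26.5%). In these groups 13.2% and 2.21% of genes carried a peak in at least 1 isolate.

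Peaks over rpb1 were also listed in parents, whose labelled strains lacked tfs1DN. The parent of the vector isolates had a peak of 1395 bp with a fold of 3.23, from 1594737 to 1596131. The seb1-1 epe1 parent had a peak of 1158 bp with a fold of 3.39, from 1595354 to 1596511. The parent of epe1 tfs1DN isolates 2 to 12 held 337 peaks, none of them over rpb1. The parent of epe1 tfs1DN isolates 1 and 13 had a list of 0 peaks, centromeres included, so its 0 at rpb1 says nothing. No peak lay over rpb1 in the 3 epe1 ago1 parents, in the 2 pfs2-11 and 2 wild-type samples, or in any of the 9 inputs. The third epe1 ago1 parent had only 333 bp of peaks at centromere 2, at a mean fold of 3.11. Its lack of a peak at rpb1 therefore says little. In the inputs 0.313% of protein-coding genes carried a peak in at least 1 list.

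**Figure D1:**
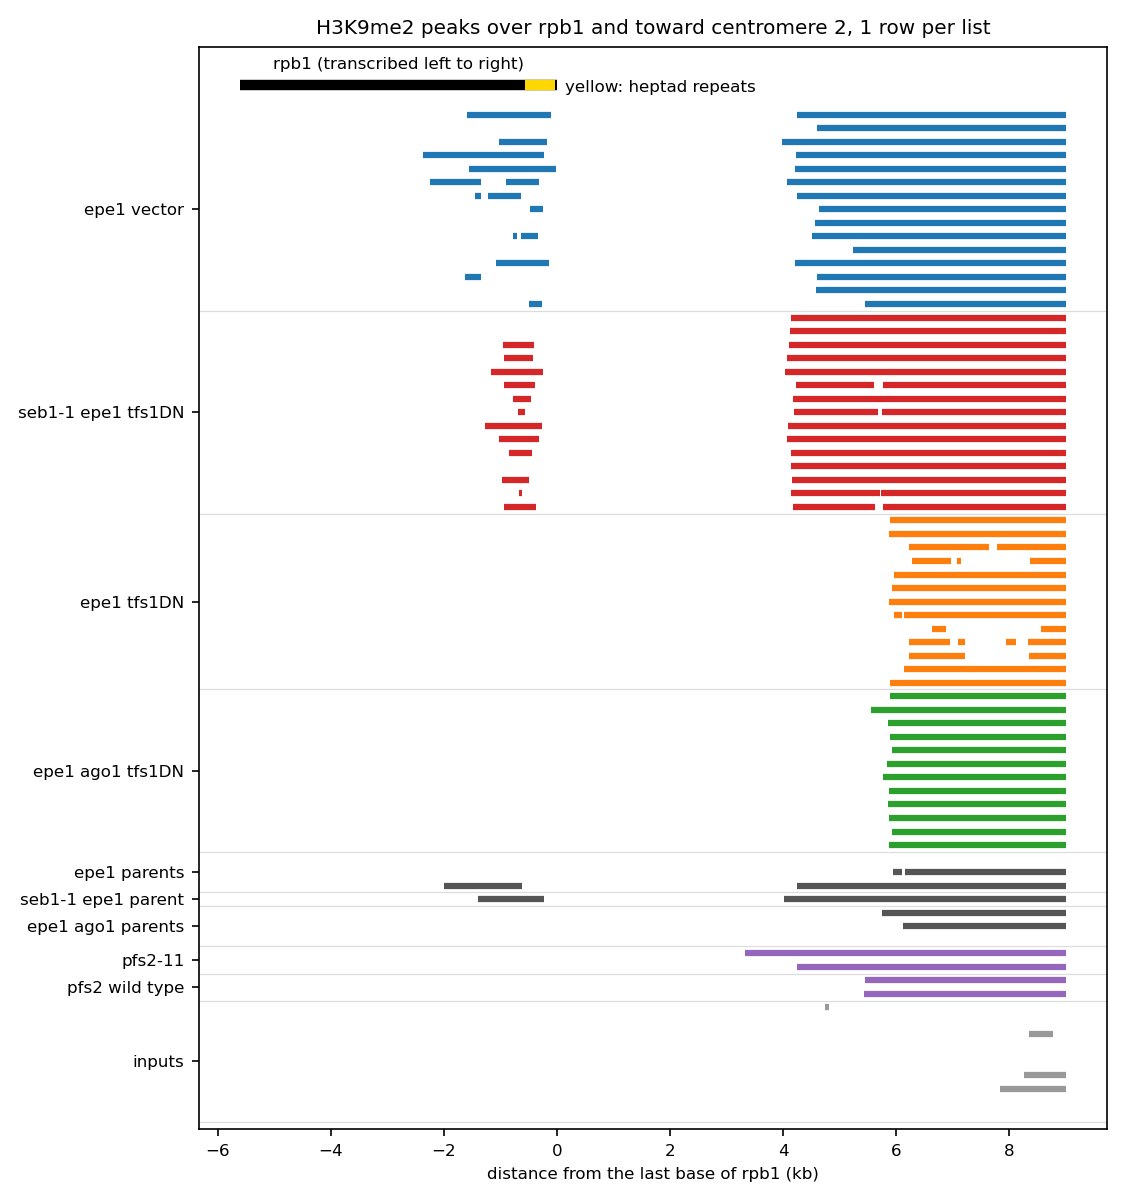
H3K9me2 peaks over rpb1 and toward centromere 2, with 1 row for each deposited list and distance from the last base of rpb1 in kb on the horizontal axis. Bars are peaks, coloured by group, and the yellow part of the gene marks the span from the first to the last exact heptad. Peaks over rpb1 appear in the vector isolates, the seb1-1 isolates and 2 parents, and each is separated from the centromeric peak by an interval without a peak.

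The fold used here is the authors' mean coverage over a peak divided by their coverage of its chromosome. All rpb1 peaks were close to the floor of the lists, which was 3.00. Over the 29 peaks the fold ran from 3.01 through a median of 3.14 to 3.54, with the lowest in seb1-1 isolate 14 and the highest in vector isolate 12. Values below the floor are not listed, so what lay just under it in the other isolates is unknown. In vector isolates the lowest, median and highest fold were 3.03, 3.13 and 3.54, and in seb1-1 isolates 3.01, 3.16 and 3.40. The median fold over 6342 peaks of all isolates was 3.37. Only 4 vector isolates and 1 seb1-1 isolate had an rpb1 peak at or above that median. Ranked by fold in its own list, the rpb1 peak stood between 29th and 70th in vector lists of 43 to 83 peaks and between 49th and 83rd in seb1-1 lists of 59 to 88.

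The depth under these peaks differed between the groups. The mean coverage of rpb1 peaks was 7.06 to 22.6 reads per base in vector isolates and 80.5 to 148 in seb1-1 isolates. Coverage of chromosome II is the value stated in the lists, which need not be its mean depth. It was 3.64 ± 1.52 (SD, n = 15) in vector isolates, 31.0 ± 7.58 (SD, n = 15) in seb1-1, 7.36 ± 3.03 (SD, n = 13) in epe1 tfs1DN and 20.9 ± 6.15 (SD, n = 12) in epe1 ago1 tfs1DN. Of the 2 isolate groups with rpb1 peaks, the vector isolates had the lowest and the seb1-1 isolates the highest mean. Within each of them, coverage with and without a peak is given below. The part of depth in the presence of rpb1 peaks was not tested.

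Another property of the lists had higher means in the vector and seb1-1 isolates, the isolate groups with rpb1 peaks. Coverage summed over the listed peaks of chromosome II, as a percent of its stated coverage times its length, was 135 ± 35.9 in vector isolates, 43.6 ± 7.10 in seb1-1, 12.2 ± 1.98 in epe1 tfs1DN and 26.7 ± 4.78 in epe1 ago1 tfs1DN (SD, n = 15, 15, 13 and 12). The seb1-1 values began at 32.5 and the epe1 ago1 tfs1DN values reached 33.2, so these groups overlapped at that edge alone. A value over 100 means that the stated coverage was no plain mean over the chromosome, so folds of different groups may not share a scale. In pfs2-11, where no peak lay over rpb1, the percents were 115 and 36.2, and in its wild types, also without one, 51.8 and 40.5. The seb1-1 isolates 1, 2 and 12, without an rpb1 peak, had 47.7, 46.7 and 48.4, above the mean of their group. Vector isolates 2, 9, 11 and 14, also without one, had 92.5, 104, 91.0 and 118, below the mean of theirs. The part of this property in the presence of rpb1 peaks was not tested.

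All 29 rpb1 peaks lay wholly inside the gene, and 28 wholly inside its coding sequence. They were confined to the 3' portion. The leftmost began 3236 bp from the start of the gene, in vector isolate 4. The rightmost ended 24 bp past the last coding base, in vector isolate 5. Their lengths ran from 62 bp through a median of 555 bp to 2134 bp, and 23 were under 1 kb. For scale, the median length of all isolate peaks was 670 bp. In 20 of the 23 isolates with a peak there was a single one, while vector isolates 6 and 7 had 2 and vector isolate 10 had 3.

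Most rpb1 peaks reached into the heptads without covering all of them. In 21 of the 25 lists a peak overlapped the exact heptad stretch, among them 9 of 11 vector and 11 of 12 seb1-1 isolates with a peak. Only vector isolate 5 covered all 525 bp. The 2 vector isolates whose peaks stopped short were isolates 7 and 13, and the seb1-1 isolate was isolate 14. In vector isolate 13 the peak lay further upstream, at 1595113 to 1595398, and shared no base with the stretch printed above. The parent of the vector isolates also stopped short of the exact heptads, at 1596131, while the seb1-1 parent covered 329 bp of them.

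**Figure D2:**
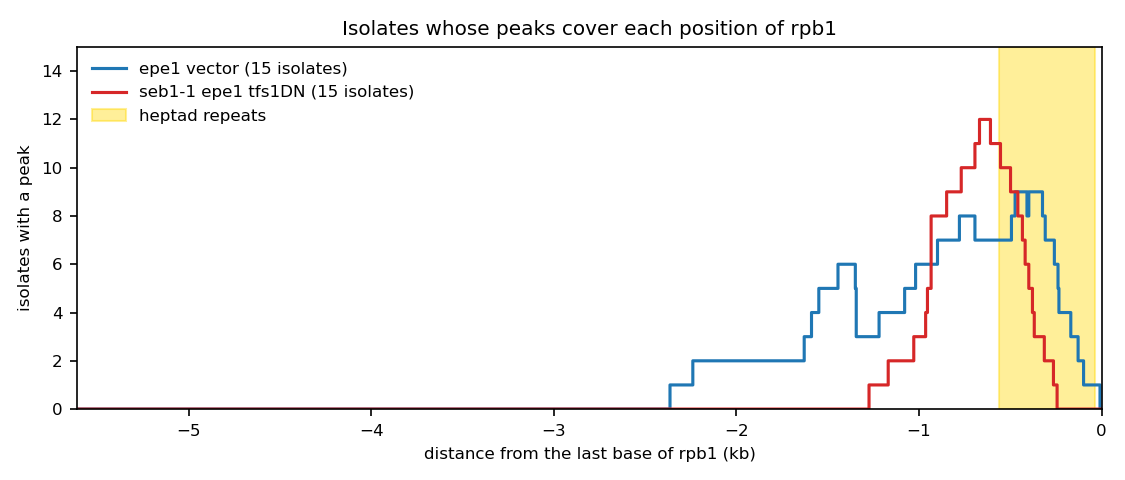
Number of isolates whose peaks cover each position of rpb1, against distance from the last base of the gene in kb. Lines are 15 vector (blue) and 15 seb1-1 (red) isolates, and the exact heptad stretch is shaded. The seb1-1 line reaches 12 just before the heptads, and the vector line reaches 9 inside them and extends further upstream.

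The seb1-1 peaks were nested around 1 place. All 12 contained the 62 bp from 1596073 to 1596134, which was the whole of the shortest peak, that of isolate 14. The stretch ends 49 bp before the first exact heptad and 576 bp before the last coding base. In vector isolates no base was covered in all 11, and the highest count was 9 isolates, over 138 bases inside the heptads in 2 pieces, from 1596270 to 1596334 and from 1596343 to 1596415. The centre of the peak with the most overlap lay 584 to 736.5 bp before the last coding base in seb1-1 isolates, with a median of 633.3 bp. In vector isolates it lay 323.5 to 1761 bp before it, with a median of 746 bp. The vector centres thus spread on both sides of the seb1-1 range.

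The mean position did not differ beyond this spread. Centres lay 839.7 ± 469 bp (SD, n = 11) before the last coding base in vector isolates and 640.2 ± 44.9 bp (SD, n = 12) in seb1-1 isolates, a difference of 199.5 bp (two-sided permutation test, 100000 resamples, p = 0.163, adjusted p = 0.186 over 3 tests). The other tests adjusted with it were of fold and of length with zeros. Length with zeros takes in the presence of a peak, for which rpb1 was chosen, and its test is not read. Its permutation p of 0.186 set the adjusted p of position and fold. The SDs themselves were not compared by a test.

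The length of rpb1 under peaks varied widely among vector isolates. Isolate 4 had the most, 2134 bp, followed by isolates 5, 1 and 6 with 1541, 1488 and 1484 bp. Isolates 12, 3 and 7 had 950, 850 and 674 bp, and isolates 10, 13, 15 and 8 had 388, 286, 235 and 234 bp. Isolates 2, 9, 11 and 14 had 0. Of the 15, 4 exceeded the 1395 bp of their parent.

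Among seb1-1 isolates the lengths were shorter at the top and filled the middle. Isolates 9 and 5 had 1010 and 928 bp, isolate 10 had 715 bp, and isolates 15, 3, 6, 4, 13, 11 and 7 had between 564 and 309 bp. Isolates 8 and 14 had 139 and 62 bp, and isolates 1, 2 and 12 had 0. None of the 15 reached the 1158 bp of the seb1-1 parent.

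With zeros included, the length was 684 ± 694 bp in vector isolates and 415 ± 328 bp in seb1-1 isolates (SD, n = 15 each), with medians of 388 and 463 bp, so the means and the medians were ordered in opposite ways. These values take in the presence of a peak, for which rpb1 was chosen, and are given as a description. Over the isolates with a peak alone, a comparison added after seeing the data, the length was 933 ± 647 bp (SD, n = 11) and 519 ± 280 bp (SD, n = 12). The difference, 414 bp, did not pass the threshold (permutation test, p = 0.0553, adjusted p = 0.166). The fold of the peak with the most overlap was 3.26 ± 0.186 (SD, n = 11) and 3.17 ± 0.124 (SD, n = 12), a difference of 0.0930 (permutation test, p = 0.167, adjusted p = 0.186). Only peaks above the floor of the lists enter this comparison of fold, and folds of different groups may not share a scale. The groups overlapped in length, position and fold. Besides the seb1-1 allele, tfs1DN and the parent and input also separate these groups, so their parts cannot be told apart.

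**Figure D3:**
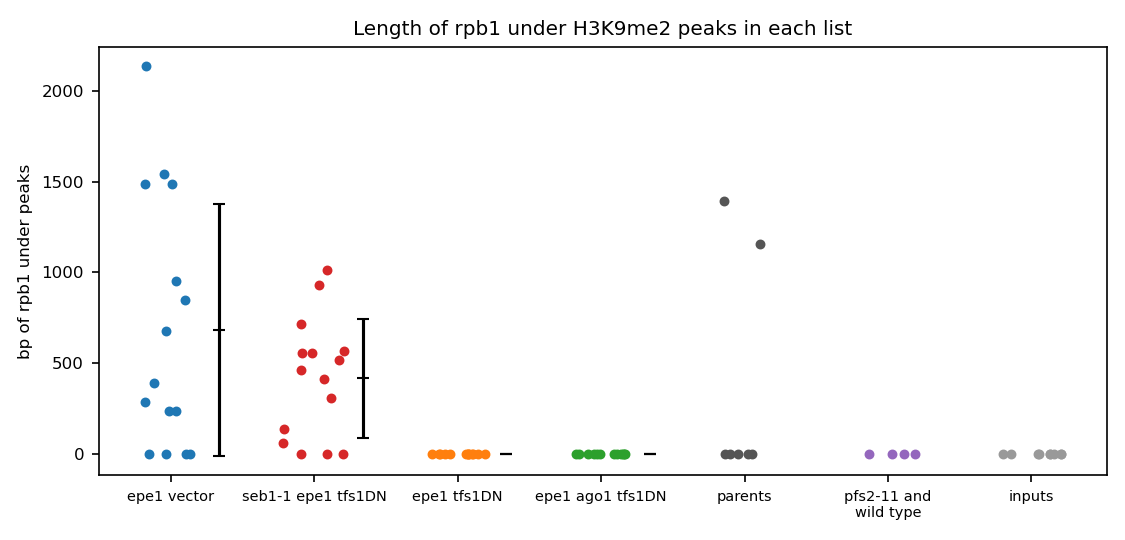
Length of rpb1 under H3K9me2 peaks, in bp, in each deposited list by group, with 1 point per list and the mean ± SD beside the 4 isolate groups. Vector isolates range from 0 to 2134 bp and seb1-1 isolates from 0 to 1010 bp, while every epe1 tfs1DN and epe1 ago1 tfs1DN isolate is at 0.

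On the side of rpb1 away from hmo1, the next peak in every isolate was that of centromere 2. The interval without a peak between the rpb1 peak and the centromeric peak was 4149 to 5946 bp (median 4471 bp) in the 11 vector isolates and 4287 to 4752 bp (median 4569 bp) in the 12 seb1-1 isolates. These intervals exceed the 1 kb window over which the authors smoothed the reads. The tRNA genes nearest to rpb1 lie in the interval. No rpb1 peak reached the end of the gene, and none joined the centromeric peak.

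The edge of the centromere 2 peak lay closer to rpb1 in the groups with rpb1 peaks. It began 4492 ± 407 bp (SD, n = 15) from the end of rpb1 in vector isolates and 4133 ± 51.2 bp (SD, n = 15) in seb1-1 isolates. In epe1 tfs1DN isolates it began 6084 ± 230 bp (SD, n = 13) away and in epe1 ago1 tfs1DN isolates 5845 ± 100.4 bp (SD, n = 12). The farthest edge in the vector isolates, 5442 bp, was still nearer than the nearest in the epe1 ago1 tfs1DN isolates, 5556 bp, so the ranges did not overlap.

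Among the parents the edge lay at 4251 bp for the vector isolates, 4016 bp for the seb1-1 isolates and 5941 bp for epe1 tfs1DN isolates 2 to 12. The epe1 ago1 parents had edges at 5742, 6117 and 13890 bp, and the last of these was far from the 5556 to 5933 bp of all epe1 ago1 tfs1DN isolates. That last list held only 333 bp of peaks at centromere 2, so its edge is no border of a centromere-wide peak. The pfs2-11 samples had edges at 3319 and 4247 bp and no peak over rpb1, and their wild types at 5423 and 5454 bp. A near edge was therefore also seen where rpb1 had no peak. The mean fold of the centromere 2 peaks was 76.5 ± 19.7 in vector isolates, 19.3 ± 3.74 in seb1-1, 6.97 ± 1.29 in epe1 tfs1DN and 11.2 ± 4.003 in epe1 ago1 tfs1DN (SD, n = 15, 15, 13 and 12). Edge, fold and rpb1 peak all rest on the same stated coverage of chromosome II, and what that shared scale contributes was not tested.

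Among vector isolates the order of the edges was set beside the length over rpb1 after the values were seen, so this is a description with no test. In the 7 isolates with the nearest edges the centromeric peak began 3978 to 4251 bp from rpb1, and all 7 had a peak over rpb1, of 674 to 2134 bp in total (median 1484 bp). In the other 8 it began 4518 to 5442 bp away, and 4 of them had a peak, with 0 to 388 bp (median 117 bp). Whether length and edge are related among vector isolates was not tested.

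In seb1-1 isolates the edge lay between 4041 and 4226 bp. With zeros included, r of the edge with the length over rpb1 was -0.444 and rho -0.326 (n = 15). For the mean fold of the centromere 2 peaks r was -0.184, and for chromosome II coverage 0.195. The lengths take in the presence of a peak, for which rpb1 was chosen, so these values are given as a description. The 3 relations, with edge, fold and coverage, were chosen after the data were seen. Without the 2 isolates farthest from the median edge r of the edge was -0.459 (n = 13). The 3 seb1-1 isolates without an rpb1 peak had edges at 4124 to 4142 bp and chromosome II coverage of 18.9 to 26.8, while those with a peak had coverage of 26.1 to 49.1. In vector isolates the coverage was 1.77 to 3.06 without a peak and 2.26 to 6.42 with one. The part of depth in the presence of a peak was not tested.

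**Figure D4:**
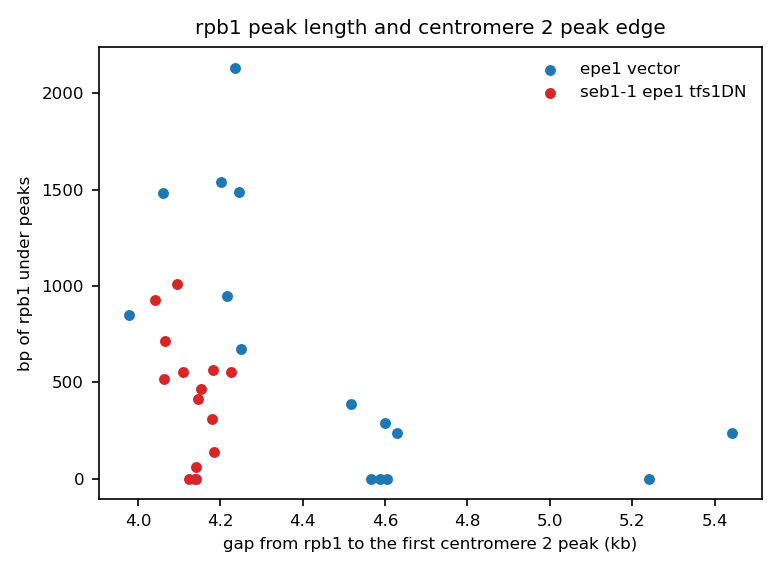
Length of rpb1 under peaks, in bp, against the distance from the end of rpb1 to the first base of the centromere 2 peak, in kb, for each vector (blue) and seb1-1 (red) isolate. The 7 vector isolates with the nearest edges have 674 to 2134 bp, the other 8 have 0 to 388 bp, and the seb1-1 isolates lie within 4041 to 4226 bp.

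The genes at the edges of the 3 centromeres were set beside rpb1, a comparison chosen after the values were seen. At centromere 1 per1 carried a peak in 14 vector and 15 seb1-1 isolates and emc5 in 15 and 10. In 14 and 10 isolates for per1, and in all of those for emc5, the peak over the gene also reached into the gene-free centromeric stretch. At centromere 3 ppc1 carried a peak in 14 vector and 15 seb1-1 isolates, which reached into the stretch in 14 and 3, and chk1, the DNA damage checkpoint kinase gene, in 8 and 0, none reaching into it. At centromere 2 yox1 carried none in any isolate. The peak over rpb1 reached into the stretch in 0 of 23 isolates. In not reaching into the stretch it resembled the peak over chk1 in vector isolates, while no seb1-1 isolate had a chk1 peak to compare. This trait was not particular to rpb1 and chk1, since peaks over per1 and ppc1 also did not reach into the stretch in some seb1-1 isolates.

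A peak over rpb2 appeared only in epe1 tfs1DN isolates, 2 of 13, or 15.4% (95% exact Clopper-Pearson interval 1.92 to 45.4%). In that group 13.2% of protein-coding genes carried a peak in at least 1 isolate, against 2.21% to 3.09% in the other isolate groups. The peak of isolate 3 was 423 bp long with a fold of 3.10, at 851783 to 852205 of chromosome I. The peak of isolate 9 was 626 bp long with a fold of 3.27, at 851770 to 852395, and contained that of isolate 3 whole. Both lay in coding sequence, 1147 and 1134 bp from the start of the gene, and thus in its 5' portion, unlike the peaks over rpb1.

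The rpb2 peaks were as near the floor as those over rpb1. They ranked 260th of 344 peaks and 395th of 669 by fold in their lists, and isolate 9 had the longest list of the group. Their coverage was 16.5 and 10.7 reads per base, over a chromosome I coverage of 5.32 and 3.28. Both isolates share a parent, which had no peak over rpb2. No other isolate, parent, input, pfs2-11 or wild-type list had one, with 0 of 15 in vector and seb1-1 isolates each (0 to 21.8%) and 0 of 12 in epe1 ago1 tfs1DN isolates. No isolate carried a peak over both genes.

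The other subunits of RNAPII carried no peak in any list. Of the 12 subunit genes, rpb1 was the only one with a peak in vector or seb1-1 isolates and rpb2 the only one in epe1 tfs1DN isolates. Over all protein-coding genes, 3.09% carried one in at least 1 vector, 2.68% in a seb1-1 and 13.2% in an epe1 tfs1DN isolate. Neither rpb3, which with rpb11 begins polymerase assembly, nor rpb4 and rpb7, which form the stalk, carried one. The subunit gene nearest to a centromere after rpb1 is rpc10, a small subunit shared by all 3 nuclear polymerases, at 27.4 kb from the gene-free stretch of centromere 2. Of the 4 genes for the large subunits of RNA polymerases I and III, rpa2 carried a peak in 3 and rpc2 in 1 of 13 epe1 tfs1DN isolates, and nuc1 and rpc1 in none, where 13.2% of all protein-coding genes carried one in at least 1 isolate. The genes next to the pair, hmo1, yox1, rps802 and sib1, carried none in any list. With shares this low and a pair chosen for its peaks, nothing is read from these counts.

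Among genes for enzymes that modify the C-terminal domain, 1 of 6 carried peaks. This was cdk9, the kinase of the P-TEFb elongation complex, with a peak in 15 of 15 vector, 9 of 13 epe1 tfs1DN and 12 of 12 epe1 ago1 tfs1DN isolates and in 0 of 15 seb1-1 isolates. The annotated gene overlaps the start of mei4, a known site of H3K9me2, so its peaks cannot be assigned to cdk9 alone. The kinase genes mcs6 and lsk1 and the phosphatase genes ssu72, fcp1 and rtr1 carried none. Of 9 elongation and termination genes, tfs1, which encodes TFIIS, carried one in 3 epe1 tfs1DN isolates and 1 seb1-1 isolate. All isolates with a tfs1 peak also carried tfs1DN, a further copy of the gene. Their peaks therefore cannot be assigned to the native tfs1 gene alone. The epe1 ago1 tfs1DN isolates carried tfs1DN too and had no tfs1 peak. A peak lay over seb1 in 2 and over spt5 in 1 epe1 tfs1DN isolates. Over all protein-coding genes 13.2% carried a peak in at least 1 epe1 tfs1DN isolate, 3.09% in a vector, 2.68% in a seb1-1 and 2.21% in an epe1 ago1 tfs1DN isolate, and nothing is read from lists this short.

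The genes whose presence was most like that of rpb1 were ranked by the Jaccard index, the number of isolates with both genes under a peak divided by the number with either, over all 55 isolates. The nearest were sul2 (0.800), ppc1 (0.793), mae2 (0.767) and grt1 (0.708), followed by fah1, mat1-Mi, SPAC869.04, SPCC569.01C, gal1 and ght7 with 0.667 to 0.615. Of these 10, 7 lay 16.4 to 70.4 kb from a chromosome end, ppc1 bordered centromere 3, mat1-Mi lay at the mating-type locus and mae2 lay on the arm of chromosome III. The gene sul2 carried a peak in 8 vector and 14 seb1-1 isolates and in none of the other isolate groups. The same absence held for ppc1, mae2, grt1, fah1, SPCC569.01C and ght7, though SPCC569.01C had a peak in 2 inputs. SPAC869.04 had one in 3 and gal1 in 6 epe1 tfs1DN isolates, and mat1-Mi in 5 epe1 ago1 tfs1DN isolates. Both mae2 and mat1-Mi had one in 15 vector and 15 seb1-1 isolates. When the index was computed over the vector and seb1-1 isolates alone, 1 of the 10 stayed among the nearest.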

How the data were processed

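For each peak the deposited lists gave its position and a signal, the mean read coverage of the peak, beside a coverage stated for its chromosome. The authors neither scaled it between libraries nor divided it by input. Per the study's methods, adaptors were trimmed, reads under 20 nt left out, and the rest aligned with Bowtie, where reads with several best matches were placed at 1 of them, then smoothed over 1 kb. The submitters' notes also name SAMtools, bedtools and the build ASM294v2. The peak caller and read length are not given in the sources used here. Starts were counted from 0 in the lists and are given from 1.

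Genes (12606, of which 5113 protein-coding) came from RefSeq on ASM294v3, taken as the same nuclear sequence since no peak ran past a chromosome end and the last peaks of chromosomes I, II and III stopped 161, 27 and 14606 bp short of them. Exact heptads were found by translating the coding sequence.

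Any overlap counted. Fold was recomputed from the authors' coverage. Percentages of isolates have 95% Clopper-Pearson intervals, which cover counting error only. Length, position and fold were compared between vector and seb1-1 isolates with two-sided permutation tests and Benjamini-Hochberg adjustment, at a threshold of 0.05. Tests of length with zeros take in the presence of a peak and are not read. The overlap code was tested on simulated data. Python 3.11.15, numpy 2.4.6, scipy 1.17.1 and pandas 2.3.3 were used. The named genes were rpb1, rpb2, their neighbours, 4 lists of polymerase and transcription genes, and the 10 genes nearest to rpb1 by Jaccard index. The members and lists were chosen with earlier results of these data known.

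One epe1 tfs1DN parent is titled for isolates 2 to 11, and was taken as the parent of isolate 12 too. Isolate numbers pair nothing between groups. Over gene presence, same-numbered vector and seb1-1 isolates correlated with a median r of 0.0185.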

Additional observations from a re-analysis of the deposited data

How the results depend on the processing

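The presence counts kept their values when a peak had to overlap the gene by 50 bp, when only coding sequence counted, when 500 bp were added on each side and when peaks overlapping the matched input were left out, and changed by at most 1 isolate with peaks of at least 100 bp. They depended on the fold. At or above the median of isolate peaks, rpb1 had a peak in 4 vector and 1 seb1-1 isolates, and at a fold of at least 3.5 in 2 and 0, and rpb2 in 0 epe1 tfs1DN isolates at either. The floor of the lists at a fold of 3.00, with all 31 peaks at or under 3.54, limits these counts. The difference in rpb1 length between vector and seb1-1 isolates turned from 269 bp to -75 bp with medians, zeros included, and the cause was not tested. It was 414 bp over isolates with a peak alone, an alternative chosen after seeing the data. With medians the difference in position was 112.75 bp (permutation test, p = 0.0432, adjusted p = 0.130), which did not pass the threshold after adjustment. The difference in fold was 0.0101 with medians. Position and fold could not be compared at or above the median fold, where 1 seb1-1 isolate was left. With the likeness computed over vector and seb1-1 isolates alone, 1 of the 10 nearest genes stayed.

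Leaving out 1 isolate at a time was an alternative chosen after seeing the data. It gave differences of 107 to 251 bp for position and 0.0652 to 0.114 for fold, with adjusted p from 0.150 to 0.350 in permutation tests. The adjustment counted length with zeros as a further test. That length takes in the presence of a peak, so its differences, 166 to 318 bp, are a description. In the replicate block, isolates of the same number form pairs. The differences were then 235.8 bp for position and 0.0503 for fold (adjusted p = 0.316 and 0.418, exact permutation within 9 pairs each). For length with zeros the difference was 269 bp over 15 pairs, again a description. The numbers were not found to pair the isolates, with 1 of 15 correlations over 0.1.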
